A study of Mus musculus with 6 samples.

Results

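The genes described here encode the contractile apparatus of smooth muscle and its calcium handling: actins, tropomyosins and calponins of the thin filament, smooth muscle and non-muscle myosins, the kinase and phosphatase that set their activity, serum response factor (SRF) and its cofactors, and proteins of the junctions and calcium stores. They were chosen by name as a list of 39 mouse genes, and all 39 were among the 18197 symbols of the count table. Of these, 37 had enough counts to be tested, within 16543 tested genes in all. The measurements are RNA-seq read counts of cancer-associated fibroblasts, the stromal cells of a tumour that make and remodel its matrix. The cells were sorted by flow cytometry from mammary tumours of C57BL/6 mice that carry the polyoma middle T oncogene (PyMT), in 3 libraries labelled mPGES-1 KO and 3 labelled WT. Tumours of both groups were harvested at 16 to 20 weeks. The knockout removes microsomal prostaglandin E synthase-1 (mPGES-1, gene Ptges), the enzyme that makes the lipid mediator prostaglandin E2, and the series title asks for the expression signature that depends on it. The promoter that drives the oncogene, the cells in which mPGES-1 is lost, the surface markers of the sort and any pooling of animals are not stated in the sources used here.

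Smooth muscle shortens when calcium binds calmodulin and activates myosin light chain kinase, which phosphorylates the regulatory light chain so that myosin pulls on actin. Myosin phosphatase reverses this step, and calcium is returned to stores or pumped out of the cell. Many of these genes are transcribed by SRF, which binds a sequence called the CArG box together with myocardin or the actin-regulated cofactors encoded by Mkl1 and Mkl2. Vascular smooth muscle cells, pericytes, myoepithelial cells and activated fibroblasts (myofibroblasts) all use parts of this machinery.

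Total counts ran from 23013498 to 37249186 in libraries labelled mPGES-1 KO and from 37432510 to 43648450 in libraries labelled WT. Ptges reached 186, 137 and 129 CPM in replicates 1 to 3 of the libraries labelled mPGES-1 KO, against 31.9, 19.2 and 27.9 CPM in libraries labelled WT (CPM, counts scaled to the library's TMM-adjusted total). The libraries labelled mPGES-1 KO thus held more Ptges (log2 fold change 2.51 ± 0.31 (SE), edgeR adjusted p = 0.0171), which goes against the label, and 1 total per gene cannot show whether a deleted part is missing. Every direction below is drawn from the labels. Fibroblast genes were present in every library, with Dcn, a matrix proteoglycan, at 8823, 3245 and 5346 CPM in libraries labelled mPGES-1 KO, against 5398, 1149 and 6413 CPM in libraries labelled WT. The luminal epithelial marker Epcam was present in all of them too, at 4686, 4899 and 3743 CPM in libraries labelled mPGES-1 KO, against 633, 338 and 480.5 CPM in libraries labelled WT.

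Of the 37 tested members, 12 fell in the libraries labelled mPGES-1 KO, 0 rose and 25 did not pass an adjusted p of 0.05 in edgeR's quasi-likelihood test. The 12 were Acta2, Cnn2, Tpm2, Cald1, Des, Myl9, Mylk, Ppp1r14a, Fhl5, Jph2, Mrvi1 and Stac. Over all tested genes 1.56% passed as lower and 1.2% as higher. The median log2 fold change of the tested members was -1.63, against -0.04 for all tested genes, and it stayed at -1.63 with the genes that had no count in the libraries labelled mPGES-1 KO set at their bound. In 19 members every library labelled mPGES-1 KO lay below every library labelled WT, where 15.7% of all tested genes did so. In 1 member, Tagln2, every library labelled mPGES-1 KO lay above every library labelled WT (12.2% of all tested genes). At an unadjusted p under 0.05 edgeR put 19 members lower and 1 higher, where 10.5% of all tested genes were lower and 8.56% higher by that rule. DESeq2 called 18 members lower and 1 higher, against 7.46% and 6.8% of the genes to which it gave an adjusted p. With limma-voom 15 members were lower and 1 higher, against 5.91% and 5.97% of all tested genes. The higher gene was Tagln2 in each. Beyond the 12, DESeq2 added Actg2, Tagln, Lmod1, Synpo2, Fhl2 and Atp2b4, and limma-voom added Lmod1, Myl6, Fhl2 and Atp2b4 and left out Jph2. Most calls depended on single libraries. No member passed without mPGES-1 KO replicate 2, mPGES-1 KO replicate 3 or WT replicate 2. Without mPGES-1 KO replicate 1, 3 passed, and 7 did so without WT replicate 3 and 11 without WT replicate 1. The loss was not particular to the members: without mPGES-1 KO replicate 2 edgeR called 0 genes lower and 0 higher over the whole table. The most it called there with a library left out was 241 lower and 327 higher, both without WT replicate 1. The log2 fold changes of the 12 stayed negative under each omission, as for Des, at -6.28 to -5.25, and Acta2, at -3.58 to -2.66. The labels do not say that the libraries of a group came from separate animals, so p-values describe library-to-library spread, which may be technical alone.

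**Figure D1:**
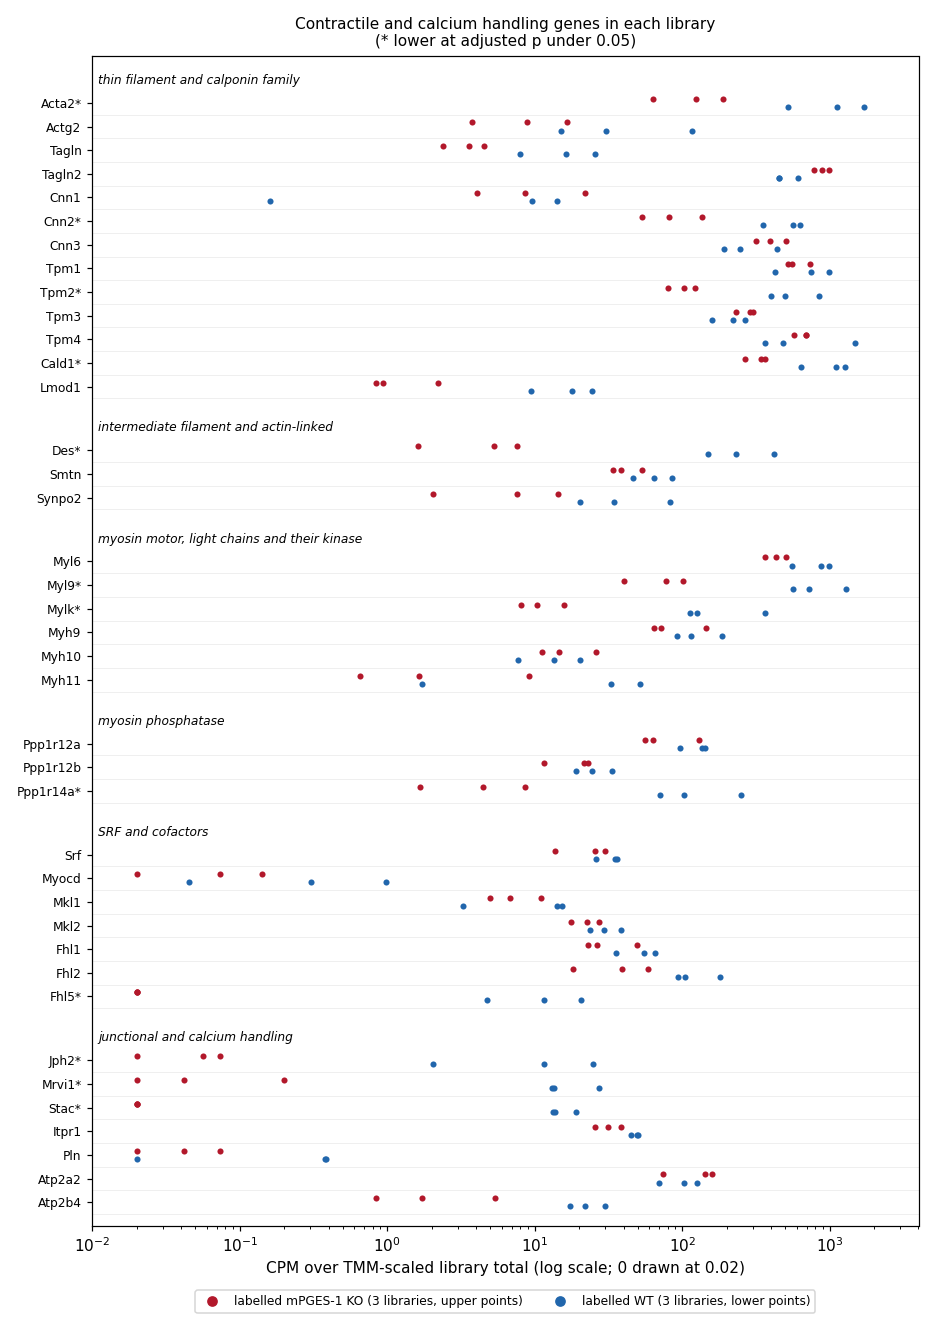
Level of each of the 39 genes in each library, in CPM on a log axis, with libraries labelled mPGES-1 KO as the upper points of a row and those labelled WT as the lower points. The 12 genes marked with an asterisk passed as lower, and their 2 sets of 3 points do not overlap.

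**Figure D2:**
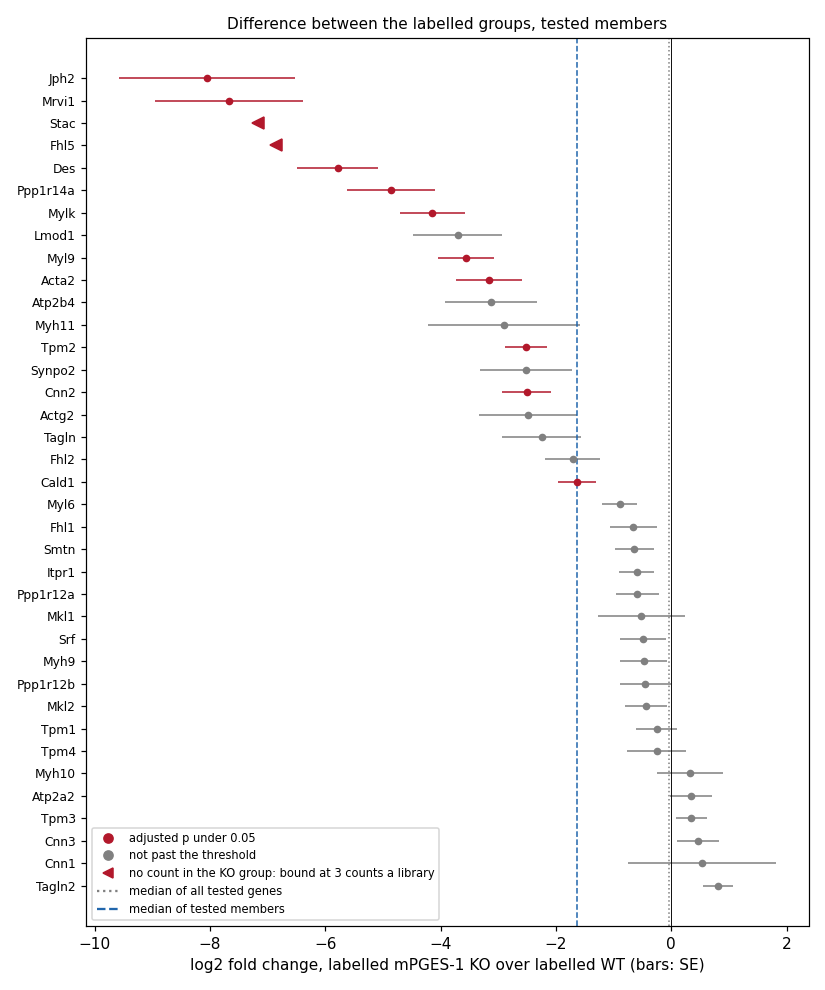
Log2 fold change of each tested member, labelled mPGES-1 KO over labelled WT, with its standard error as a bar and arrowheads for Fhl5 and Stac at the bound set by 3 counts a library. Jph2 and Mrvi1, with 4 and 8 counts in libraries labelled mPGES-1 KO, are drawn at fitted values, so the order among these 4 genes carries no meaning. The other members run from Des at -5.79 to Tagln2 at 0.81, with the median of all tested members at -1.63 (dashed) and that of all tested genes at -0.04 (dotted).

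Markers of some other cell types also differed between the groups, pericyte markers in the direction of these genes and luminal epithelial markers in the opposite one. The summed level of 15 pericyte markers was 232 to 474 CPM in libraries labelled mPGES-1 KO and 3423 to 8034 CPM in libraries labelled WT, a 16.8-fold lower mean. Of these markers 10 fell, 0 rose and 5 did not pass, with the groups apart for 14 of 15, and none was at 0 in any library. Their most abundant member, Rgs5, was at 119.6, 49.9 and 92.7 CPM in libraries labelled mPGES-1 KO, against 2291, 1512 and 858 CPM in libraries labelled WT. Of 13 luminal epithelial markers 5 rose (Epcam, Krt8, Krt18, Cdh1 and Elf3), and their sum was 16105 to 19089 CPM in libraries labelled mPGES-1 KO and 3458 to 4675 CPM in libraries labelled WT. Myoepithelial cells also hold a contractile apparatus: of 12 listed basal and myoepithelial markers 10 were in the table, 7 were tested and 0 were called by edgeR, DESeq2 or limma-voom, also 0 at an unadjusted p under 0.05. The sum of these markers overlapped between the groups, at 134 to 272 CPM in libraries labelled mPGES-1 KO and 77.9 to 167 CPM in libraries labelled WT. Of the same 10, 1 or 2 were at 0 in each library labelled mPGES-1 KO and at most 1 in each labelled WT. Fibroblast markers summed to 6652 to 18612 CPM in libraries labelled mPGES-1 KO and 9381 to 29065 CPM in libraries labelled WT. Among 12 tested genes edgeR called Dpp4 higher and Thy1 lower. The groups overlapped for 9 of them, while 2 lay wholly below and 1 wholly above in libraries labelled mPGES-1 KO. At an unadjusted p under 0.05 edgeR put 2 lower and 1 higher, and DESeq2 and limma-voom each called as many. Mitochondrially encoded transcripts held 2.02 to 2.76% of counts in libraries labelled mPGES-1 KO and 0.550 to 2.27% in libraries labelled WT. Of these 6 transcripts, edgeR called 0 (2 higher at an unadjusted p under 0.05), DESeq2 called 2 higher and limma-voom 6 higher. Of 9 endothelial, 10 leukocyte and 7 striated muscle markers tested, edgeR called 0. At an unadjusted p under 0.05 it put 2 endothelial markers lower, 1 leukocyte marker higher and 0 striated muscle markers either way, as DESeq2 did by its adjusted p, while limma-voom called 1 endothelial marker lower. No marker is among the 39 genes. The part of these shifts in the contractile and calcium handling genes was not tested. In sorted bulk cells, fewer cells of a type and less RNA per cell cannot be told apart.

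**Figure D3:**
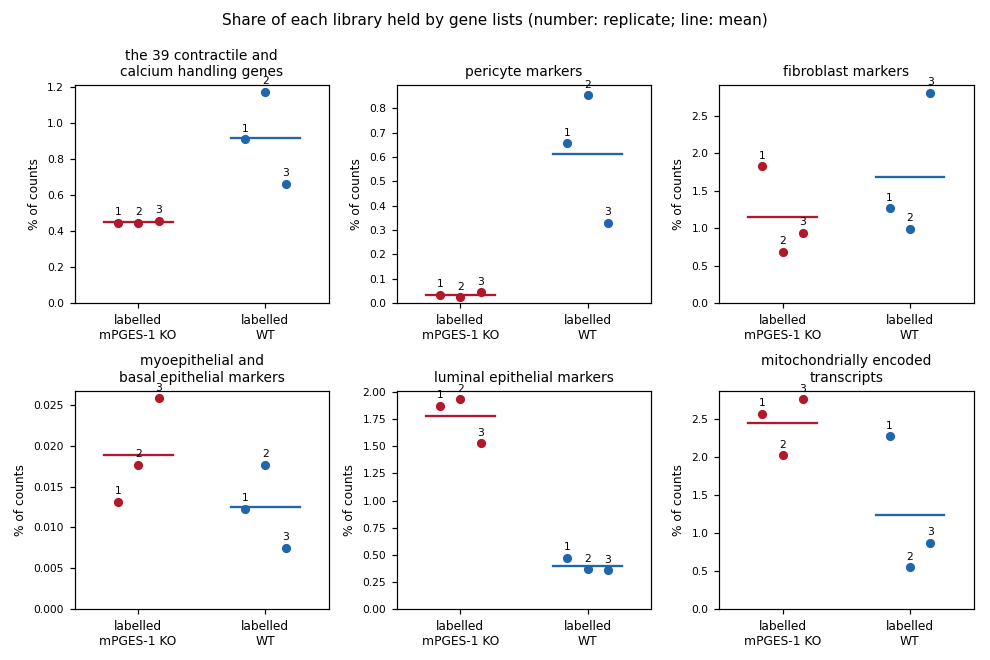
Percent of each library's counts held by the 39 genes and by 5 marker lists, with 1 point a library (numbered by replicate) and a line at the group mean, labelled mPGES-1 KO left of labelled WT. The 39 genes hold 0.446% to 0.458% of counts in libraries labelled mPGES-1 KO and 0.665% to 1.18% in libraries labelled WT, with WT replicate 2 highest and WT replicate 3 lowest, as for the pericyte markers.

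The promoters of 6 members are shown because they carry the CArG box that SRF binds, or for Acta2 a CArG-like match, and because their genes differ in outcome: Acta2, Cnn2 and Myl9 fell, while Myl6, Srf and Fhl2 did not pass. Each window runs from 250 bases before to 50 after a transcript start in RefSeq (GRCm38.p6), read along the gene's strand. Acta2 lies at chr19:34255324-34255623 on the minus strand, Cnn2 at chr10:79988350-79988649 on the plus strand and Myl9 at chr2:156775214-156775513 on the plus strand. The second listed promoter of Myl6 lies at chr10:128492960-128493259 on the minus strand, Srf at chr17:46556113-46556412 on the minus strand and the second listed promoter of Fhl2 at chr1:43163912-43164211 on the minus strand. Capitals mark CArG boxes and CArG-like matches with a single C or G in the A/T core.
Acta2: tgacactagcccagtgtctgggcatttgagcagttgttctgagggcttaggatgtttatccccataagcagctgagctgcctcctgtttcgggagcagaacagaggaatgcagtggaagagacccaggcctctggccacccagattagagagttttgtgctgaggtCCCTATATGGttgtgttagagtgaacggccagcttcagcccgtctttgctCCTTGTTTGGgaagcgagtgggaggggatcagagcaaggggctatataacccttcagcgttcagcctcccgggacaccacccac
Cnn2: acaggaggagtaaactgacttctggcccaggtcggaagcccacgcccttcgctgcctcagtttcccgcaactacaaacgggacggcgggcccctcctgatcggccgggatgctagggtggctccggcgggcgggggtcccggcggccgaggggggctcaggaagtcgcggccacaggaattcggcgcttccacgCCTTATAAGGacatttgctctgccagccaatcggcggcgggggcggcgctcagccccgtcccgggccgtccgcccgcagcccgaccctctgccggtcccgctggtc
Myl9: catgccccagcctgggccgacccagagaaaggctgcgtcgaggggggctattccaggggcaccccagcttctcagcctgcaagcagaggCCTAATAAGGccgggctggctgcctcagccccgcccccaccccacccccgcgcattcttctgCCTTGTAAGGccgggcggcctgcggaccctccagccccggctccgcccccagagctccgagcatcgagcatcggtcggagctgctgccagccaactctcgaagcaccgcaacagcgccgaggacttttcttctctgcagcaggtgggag
Myl6: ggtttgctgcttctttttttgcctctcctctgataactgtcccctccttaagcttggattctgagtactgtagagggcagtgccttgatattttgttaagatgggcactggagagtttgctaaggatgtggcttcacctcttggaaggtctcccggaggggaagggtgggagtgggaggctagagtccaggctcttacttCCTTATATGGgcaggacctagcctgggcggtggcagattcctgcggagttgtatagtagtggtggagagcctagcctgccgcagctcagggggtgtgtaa
Srf: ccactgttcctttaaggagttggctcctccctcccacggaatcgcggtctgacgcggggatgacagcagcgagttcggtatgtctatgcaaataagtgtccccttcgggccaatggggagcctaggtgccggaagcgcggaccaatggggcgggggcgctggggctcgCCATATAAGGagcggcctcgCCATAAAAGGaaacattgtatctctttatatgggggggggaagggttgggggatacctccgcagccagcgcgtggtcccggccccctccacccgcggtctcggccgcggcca
Fhl2: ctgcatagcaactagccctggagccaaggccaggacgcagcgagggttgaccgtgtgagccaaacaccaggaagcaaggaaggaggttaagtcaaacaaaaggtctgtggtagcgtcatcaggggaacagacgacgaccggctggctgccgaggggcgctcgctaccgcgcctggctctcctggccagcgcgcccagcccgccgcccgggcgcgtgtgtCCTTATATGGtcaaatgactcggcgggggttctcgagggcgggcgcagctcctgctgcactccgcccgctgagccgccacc

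The Acta2 window held 2 CArG-like matches, starting 84 and 34 bases before the start. Cnn2 held a CArG box 56 bases before the start. Myl9 held a CArG box at 161 and a CArG-like match at 99 bases before the start. Srf itself held 2 CArG boxes, at 82 and 62 bases before its start. The printed windows of Myl6 and Fhl2 held 1 CArG box each, at 50 and 31 bases before the start. Of the 39 members 33 had a promoter in the table, in 45 windows, and the CArG box reads the same on both strands. A CArG box was in a window of 6 of the 33 members (18.2%), and of 1.63% of the tested genes with a promoter, as of 1.63% of all 32851 windows. These 6 were Cnn2, Myl6, Myl9, Srf, Fhl1 and Fhl2, and so not the same 6 as printed. The windows not printed held a box at 102 bases before the start in Fhl1 and at 96 in the other promoter of Fhl2. Counting CArG-like matches too, 11 of 33 members (33.3%) had a match, against 10.7% of tested genes with a promoter and 9.98% of all windows. Among members that fell, 2 of 12 had a CArG box and 5 of 12 either kind. Among those that did not pass, 4 of 20 had a CArG box and 6 of 20 either kind. A match is a run of letters and no evidence of binding, and CArG boxes outside this window were not searched.

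**Figure D4:**
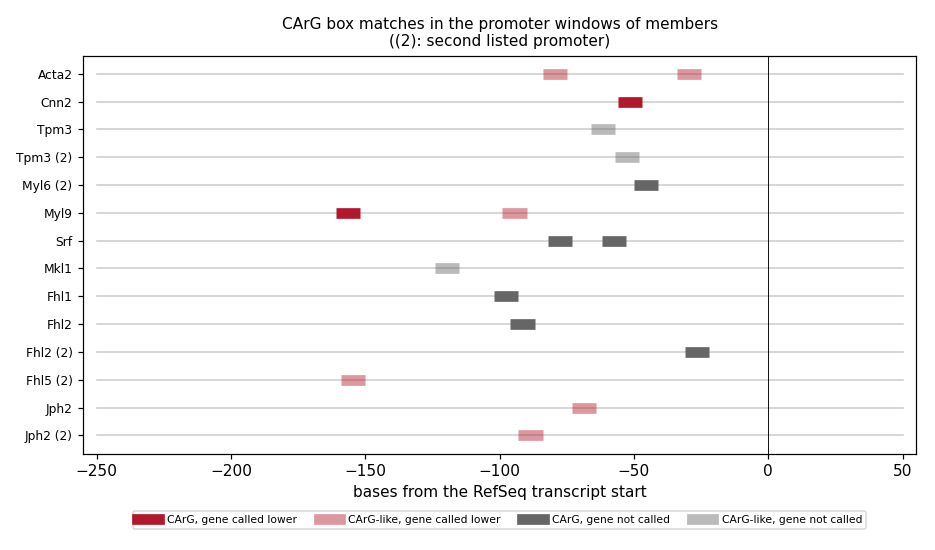
Position of CArG boxes and CArG-like matches (bars of 10 bases, paler for CArG-like) in the promoter windows of members that hold one, in bases from the RefSeq transcript start. All matches start between 161 and 31 bases before the start, in genes that fell (red) and in genes that did not pass (grey).

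Of the 13 thin filament and calponin family genes, 4 fell and 9 did not pass, with 9 negative and 4 positive log2 fold changes. Acta2, which encodes the smooth muscle actin that marks myofibroblasts and mural cells (chr19:34241090-34255590, minus strand), was at 188, 63.4 and 123 CPM in replicates 1 to 3 of the libraries labelled mPGES-1 KO, against 1129, 1713 and 518 CPM in libraries labelled WT. The groups did not overlap, and WT replicate 2 was the highest. The means were 125 ± 62.4 CPM in libraries labelled mPGES-1 KO, against 1120.2 ± 598 CPM in libraries labelled WT (SD, n = 3 each). The log2 fold change was -3.16 ± 0.57 (SE, edgeR adjusted p = 0.0345). Actg2, the enteric smooth muscle actin, was at 3.73, 8.80 and 16.5 CPM in libraries labelled mPGES-1 KO, against 30.3, 117 and 15.0 CPM in libraries labelled WT. Its groups overlapped, since WT replicate 3 lay below mPGES-1 KO replicate 3 (log2 fold change -2.48 ± 0.86, edgeR adjusted p = 0.167). Without WT replicate 2 the Actg2 log2 fold change was -1.18.

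Tropomyosins are coiled rods that lie along actin and gate its access to myosin. Tpm2, the form abundant in smooth muscle (chr4:43514711-43523765, minus strand), was at 102, 80.0 and 122 CPM in replicates 1 to 3 of the libraries labelled mPGES-1 KO, against 403, 848 and 499 CPM in libraries labelled WT. It fell to 101 ± 21.0 CPM, against 583 ± 234 CPM in the libraries labelled WT (SD, n = 3 each; log2 fold change -2.52 ± 0.36, edgeR adjusted p = 0.0225). The other tropomyosins did not pass and their groups overlapped. Tpm1 was at 519, 554 and 729.8 CPM in libraries labelled mPGES-1 KO, against 982, 746 and 424 CPM in libraries labelled WT. Tpm3 was at 233, 290.1 and 301 CPM in libraries labelled mPGES-1 KO, against 266, 159 and 222 CPM in libraries labelled WT. Tpm4 was at 573, 690.4 and 690.0 CPM in libraries labelled mPGES-1 KO, against 1475, 485 and 366 CPM in libraries labelled WT, with WT replicate 1 apart from the rest. Their log2 fold changes were -0.26 ± 0.35, 0.35 ± 0.27 and -0.25 ± 0.51 (edgeR adjusted p = 0.77, 0.562 and 0.856), and those of Tpm1 and Tpm4 turned to 0.053 and 0.64 without WT replicate 1.

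Calponins and the related transgelins bind actin along its length. Cnn2, a calponin made in many cell types (chr10:79988584-79996062, plus strand), was at 81.2, 53.3 and 137 CPM in replicates 1 to 3 of the libraries labelled mPGES-1 KO, against 563, 630.3 and 351 CPM in libraries labelled WT. It fell, with no overlap between the groups (log2 fold change -2.51 ± 0.42, edgeR adjusted p = 0.0296). Cnn1, the smooth muscle calponin, was low and uneven, at 21.8, 8.59 and 4.05 CPM in libraries labelled mPGES-1 KO, against 0.159, 14.1 and 9.53 CPM in libraries labelled WT. WT replicate 1 held almost none of it, and the Cnn1 log2 fold change of 0.53 ± 1.28 (edgeR adjusted p = 0.88) turned to -0.32 without mPGES-1 KO replicate 1 and to -0.015 without WT replicate 1. Cnn3, another calponin found outside muscle, was at 319, 508 and 392 CPM in libraries labelled mPGES-1 KO, against 440.4, 247 and 193 CPM in libraries labelled WT (log2 fold change 0.47 ± 0.37, edgeR adjusted p = 0.558).

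Tagln, the smooth muscle transgelin, was at 4.54, 2.39 and 3.57 CPM in libraries labelled mPGES-1 KO, against 7.90, 25.6 and 16.3 CPM in libraries labelled WT, and its groups did not overlap (log2 fold change -2.24 ± 0.68, edgeR adjusted p = 0.125). Of its annotated exonic bases, 67.9% are shared with the opposite-strand genes Pcsk7 and Gm48529, and these reads carry no strand, so the Tagln level is uncertain. Tagln2, the transgelin of non-muscle cells, was at 882, 788 and 985 CPM in replicates 1 to 3 of the libraries labelled mPGES-1 KO, against 609.7, 452 and 451 CPM in libraries labelled WT. All 3 libraries labelled mPGES-1 KO were above those labelled WT, and the difference did not pass (log2 fold change 0.81 ± 0.26, edgeR adjusted p = 0.141). DESeq2 and limma-voom called it.

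Caldesmon and leiomodin also act on the thin filament. Cald1, whose product restrains myosin on actin (chr6:34598500-34775473, plus strand), was at 362, 344 and 266 CPM in replicates 1 to 3 of the libraries labelled mPGES-1 KO, against 640.2, 1276 and 1096 CPM in libraries labelled WT. It fell with the smallest difference among the 12 (log2 fold change -1.63 ± 0.33, edgeR adjusted p = 0.0484), and the call was lost with DESeq2 size factors, with library size alone and with no filter on low counts. Lmod1, which nucleates actin filaments in smooth muscle, was at 2.19, 0.838 and 0.935 CPM in libraries labelled mPGES-1 KO, against 9.45, 24.4 and 17.98 CPM in libraries labelled WT. Its groups were apart, and it stood just outside the threshold (log2 fold change -3.70 ± 0.77, edgeR adjusted p = 0.0507).

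Of the 3 intermediate filament and actin-linked genes, Des fell. It encodes desmin, the muscle intermediate filament (chr1:75360329-75368579, plus strand), and was at 1.61, 5.28 and 7.56 CPM in replicates 1 to 3 of the libraries labelled mPGES-1 KO, against 232, 417 and 150.0 CPM in libraries labelled WT. Every library labelled WT lay far above every one labelled mPGES-1 KO, and the log2 fold change was -5.79 ± 0.70 (edgeR adjusted p = 0.0171). Smtn, encoding smoothelin of the contractile cytoskeleton, was at 53.4, 38.6 and 34.2 CPM in libraries labelled mPGES-1 KO, against 64.5, 85.8 and 46.1 CPM in libraries labelled WT (log2 fold change -0.64 ± 0.34, edgeR adjusted p = 0.375), and 16.3% of its exonic bases are shared with opposite-strand genes. Synpo2, an actin bundling protein of muscle, was at 14.4, 7.59 and 2.04 CPM in libraries labelled mPGES-1 KO, against 20.2, 82.8 and 34.6 CPM in libraries labelled WT. Its groups did not overlap, and the difference did not pass (log2 fold change -2.52 ± 0.80, edgeR adjusted p = 0.138).

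Of the 6 genes of the motor and its kinase, Myl9 and Mylk fell. Myl9, the regulatory light chain of smooth muscle myosin (chr2:156775420-156781658, plus strand), was at 77.3, 40.6 and 101 CPM in replicates 1 to 3 of the libraries labelled mPGES-1 KO, against 720.5, 1291 and 565 CPM in libraries labelled WT. Its log2 fold change was -3.56 ± 0.48 (edgeR adjusted p = 0.0179). Mylk, the kinase that phosphorylates that chain (chr16:34745210-35002420, plus strand), was at 10.4, 8.09 and 15.7 CPM in replicates 1 to 3 of the libraries labelled mPGES-1 KO, against 114, 366 and 125 CPM in libraries labelled WT. WT replicate 2 was highest for both genes and the groups were apart (Mylk log2 fold change -4.14 ± 0.57, edgeR adjusted p = 0.0184). Myl6, the essential light chain that smooth muscle and other cells share, was at 432, 362 and 502 CPM in libraries labelled mPGES-1 KO, against 558, 875 and 982 CPM in libraries labelled WT. Its groups were apart too, by a smaller amount that did not pass (log2 fold change -0.90 ± 0.30, edgeR adjusted p = 0.159).

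The myosin heavy chains did not pass. Myh11, the smooth muscle heavy chain, was at 9.18, 1.63 and 0.651 CPM in libraries labelled mPGES-1 KO, against 1.73, 51.3 and 32.8 CPM in libraries labelled WT. WT replicate 1 lay inside the range of the libraries labelled mPGES-1 KO, and the log2 fold change was -2.90 ± 1.32, the widest error among members that did not pass (edgeR adjusted p = 0.288). Without mPGES-1 KO replicate 1 it was -4.65 and without WT replicate 2 it was -2.12. Myh9, a non-muscle heavy chain, was at 145, 71.7 and 63.9 CPM in libraries labelled mPGES-1 KO, against 92.1, 185 and 114 CPM in libraries labelled WT. Myh10, also non-muscle, was at 14.5, 26.1 and 11.1 CPM in libraries labelled mPGES-1 KO, against 13.4, 7.67 and 20.2 CPM in libraries labelled WT. The groups overlapped for both (log2 fold changes -0.48 ± 0.41 and 0.33 ± 0.56, edgeR adjusted p = 0.597 and 0.825). The Myh10 value turned to -0.061 without mPGES-1 KO replicate 2.

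Myosin phosphatase removes the activating phosphate, and of its 3 genes here 1 fell. Ppp1r14a encodes the inhibitor that kinases switch on during contraction (chr7:29289308-29293801, plus strand). It was at 8.56, 1.68 and 4.45 CPM in replicates 1 to 3 of the libraries labelled mPGES-1 KO, against 104, 252 and 70.3 CPM in libraries labelled WT, with the groups far apart (log2 fold change -4.86 ± 0.76, edgeR adjusted p = 0.0273). Ppp1r12a, the main targeting subunit, was at 131, 56.2 and 63.5 CPM in libraries labelled mPGES-1 KO, against 143, 137 and 96.2 CPM in libraries labelled WT. Ppp1r12b, its muscle-enriched relative, was at 21.5, 11.6 and 23.1 CPM in libraries labelled mPGES-1 KO, against 33.3, 24.5 and 19.0 CPM in libraries labelled WT. Both overlapped between the groups (log2 fold changes -0.59 ± 0.38 and -0.45 ± 0.44, edgeR adjusted p = 0.472 and 0.657).

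SRF and its cofactors are 7 genes here, of which 6 were tested and Fhl5 fell. Srf, whose promoter with 2 CArG boxes is printed above, was at 25.5, 13.8 and 30.0 CPM in libraries labelled mPGES-1 KO, against 36.4, 35.1 and 25.9 CPM in libraries labelled WT (log2 fold change -0.49 ± 0.40, edgeR adjusted p = 0.584). Mkl1 was at 4.94, 11.1 and 6.82 CPM in libraries labelled mPGES-1 KO, against 3.26, 14.2 and 15.3 CPM in libraries labelled WT. Mkl2 was at 17.6, 22.5 and 27.4 CPM in libraries labelled mPGES-1 KO, against 23.7, 38.2 and 29.6 CPM in libraries labelled WT. All 3 overlapped between the groups, and the log2 fold changes of the cofactors were -0.52 ± 0.76 and -0.44 ± 0.37 (edgeR adjusted p = 0.786 and 0.594). Myocd, encoding myocardin, had 7 counts summed over libraries labelled mPGES-1 KO and 52 over libraries labelled WT, too few to be tested. The counting ratio of WT over mPGES-1 KO was 5.35 (95% exact interval 2.42 to 14.0, counting error only).

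The LIM-only proteins join transcription factors and actin structures. Fhl5 (chr4:25199908-25242876, minus strand) was at 0 counts in all 3 libraries labelled mPGES-1 KO, against 20.7, 11.5 and 4.78 CPM in libraries labelled WT. It was at least 115-fold lower when each library labelled mPGES-1 KO is set at 3 counts, or 0.107 CPM on average (edgeR adjusted p = 0.0309). Fhl2, a target and partner of SRF whose promoter is printed above, was at 58.5, 18.1 and 38.99 CPM in libraries labelled mPGES-1 KO, against 104, 180.3 and 93.3 CPM in libraries labelled WT. Its groups were apart and it did not pass (log2 fold change -1.71 ± 0.47, edgeR adjusted p = 0.103), though DESeq2 and limma-voom called it. Fhl1 was at 49.7, 22.9 and 26.4 CPM in libraries labelled mPGES-1 KO, against 65.4, 35.6 and 55.2 CPM in libraries labelled WT, with overlap (log2 fold change -0.66 ± 0.41, edgeR adjusted p = 0.457).

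Of 6 tested junctional and calcium handling genes, 3 fell, each with almost no counts in libraries labelled mPGES-1 KO. Jph2, which ties calcium stores to the surface membrane in muscle (chr2:163336242-163397993, minus strand), had 4 counts summed over libraries labelled mPGES-1 KO and 1500 over libraries labelled WT. Its levels were 0.0732, 0 and 0.0566 CPM in libraries labelled mPGES-1 KO, against 2.05, 24.9 and 11.5 CPM in libraries labelled WT, with WT replicate 1 well below the other WT libraries (log2 fold change -8.05 ± 1.52, edgeR adjusted p = 0.0399). Mrvi1 encodes the substrate through which cyclic GMP kinase restrains calcium release (chr7:110868266-110982461, minus strand). It had 8 counts summed over libraries labelled mPGES-1 KO and 2147 over libraries labelled WT, or 0, 0.0419 and 0.198 CPM in libraries labelled mPGES-1 KO, against 13.0, 27.2 and 13.6 CPM in libraries labelled WT (log2 fold change -7.67 ± 1.28, edgeR adjusted p = 0.0296). The counting ratio of WT over mPGES-1 KO was 270.1 (95% exact interval 105 to 993, counting error only) for Jph2 and 193 (95% exact interval 97.9 to 448, counting error only) for Mrvi1. Stac, encoding an adaptor of voltage-gated calcium channels (chr9:111561437-111690348, minus strand), was at 0 counts in all 3 libraries labelled mPGES-1 KO, against 13.7, 18.9 and 13.3 CPM in libraries labelled WT. It was at least 143-fold lower by the same floor (edgeR adjusted p = 0.0182), and 11.3% of its exonic bases are shared with an opposite-strand gene. The reads were amplified by PCR and carry no molecular identifiers, so the intervals and the floors given here cover only the error of counting.

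The other calcium handling members did not pass. Itpr1, the inositol trisphosphate receptor that releases stored calcium, was at 31.5, 38.3 and 25.5 CPM in libraries labelled mPGES-1 KO, against 44.9, 49.9 and 49.3 CPM in libraries labelled WT. The groups were apart by a small amount that did not pass (log2 fold change -0.60 ± 0.30, edgeR adjusted p = 0.343). Atp2a2, the pump that refills the store, was at 143, 160.1 and 73.9 CPM in libraries labelled mPGES-1 KO, against 69.5, 102 and 126 CPM in libraries labelled WT, with overlap (log2 fold change 0.34 ± 0.37, edgeR adjusted p = 0.691). Atp2b4, a pump of the surface membrane, was at 0.841, 1.72 and 5.35 CPM in libraries labelled mPGES-1 KO, against 17.3, 30.2 and 21.8 CPM in libraries labelled WT. Its groups were apart and it did not pass in edgeR (log2 fold change -3.12 ± 0.79, adjusted p = 0.0854), while DESeq2 and limma-voom called it. Pln, the phospholamban that inhibits the store pump, had 3 counts summed over libraries labelled mPGES-1 KO and 32 over libraries labelled WT and was not tested, and 64.7% of its exonic bases are shared with opposite-strand genes.

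Among related genes, a ratio within a library shows whether paralogs differed by unequal amounts between the groups. For 8 pairs set by name, the log2 ratio of CPM values, with 0.5 added to each, was compared by a two-sided exact permutation test, in which 3 against 3 libraries cannot give a p below 0.10. Tpm2 over Tpm3 was -1.18, -1.85 and -1.30 in libraries labelled mPGES-1 KO and 0.60, 2.41 and 1.17 in libraries labelled WT, a difference of -2.84 with no overlap (exact p = 0.1, 0.267 adjusted over the 8 pairs). Tagln over Tagln2 was -7.45, -8.09 and -7.92 in libraries labelled mPGES-1 KO and -6.18, -4.12 and -4.75 in libraries labelled WT, a difference of -2.80 (exact p = 0.1, adjusted 0.267). That ratio is as uncertain as the Tagln level, since most Tagln exonic bases are shared with opposite-strand genes. The ratio of Cnn1 to Cnn2 ran the other way, at -1.88, -2.56 and -4.91 in libraries labelled mPGES-1 KO and -9.74, -5.44 and -5.13 in libraries labelled WT, a difference of 3.65 (exact p = 0.1, adjusted 0.267). Without WT replicate 1, where Cnn1 was at 0.159 CPM and the added 0.5 largely sets the ratio, that difference was 2.17. Myh11 over Myh9 and over Myh10 differed by -1.93 and -2.77 with overlap between the groups (exact p = 0.3 and 0.2, adjusted 0.48 and 0.4). Without WT replicate 1 they were -3.12 and -4.21, and without WT replicate 2 the difference over Myh10 was -1.56. Cnn1 over Cnn3, Tpm1 over Tpm4 and Ppp1r12b over Ppp1r12a differed by 0.55, -0.21 and 0.21, also with overlap (exact p = 0.8, 0.6 and 0.8, each adjusted to 0.8).

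**Figure D5:**
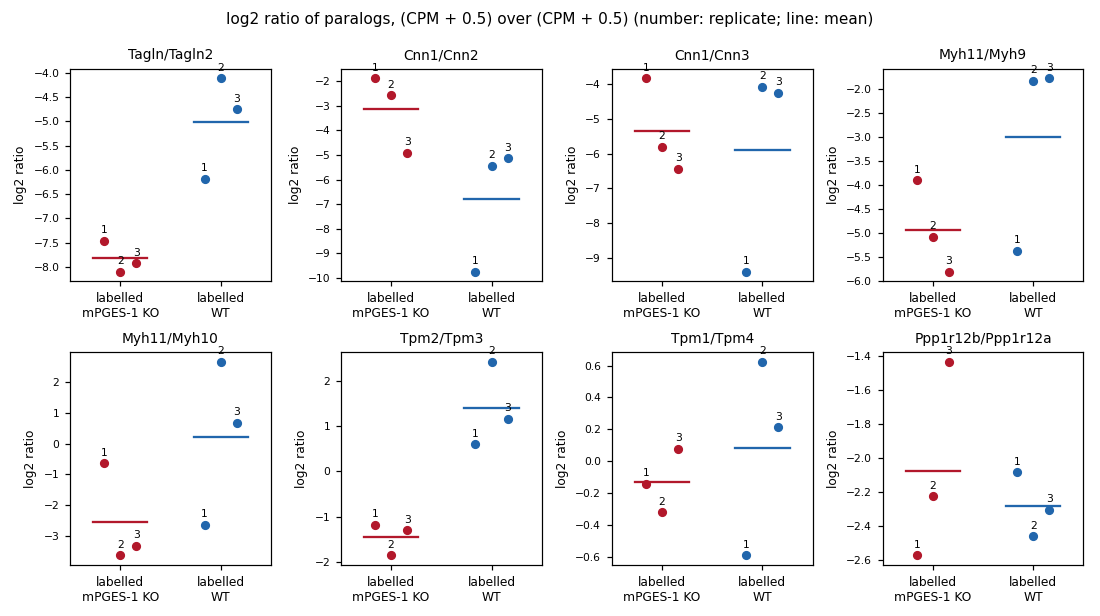
Log2 ratio of CPM values (0.5 added to each) of 8 paralog pairs, with 1 point a library numbered by replicate and a line at the group mean, labelled mPGES-1 KO left of labelled WT. The groups do not overlap for Tagln over Tagln2, Cnn1 over Cnn2 and Tpm2 over Tpm3, and overlap for the other 5 pairs.

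Scaled to exonic length, the leading member was not the same gene in both groups. On this scale Myl9 was the most abundant member in the libraries labelled WT. Myl9 averaged 62.7 CPM per kb in libraries labelled mPGES-1 KO and 739 CPM per kb in libraries labelled WT. It took 2.61% to 5.43% of the members' summed CPM per kb in libraries labelled mPGES-1 KO and 18.3% to 26.8% in libraries labelled WT. Acta2 took 2.16% to 5.95% in libraries labelled mPGES-1 KO and 10.4% to 18.8% in libraries labelled WT. Tagln2, the most abundant member in the mPGES-1 KO group on this scale, averaged 425 CPM per kb in libraries labelled mPGES-1 KO and 242 CPM per kb in libraries labelled WT. It took 28.2% to 29.6% of the sum in the libraries labelled mPGES-1 KO against 5.23% to 9.54% in libraries labelled WT. Tpm4 took 18.1% to 23.4% in libraries labelled mPGES-1 KO and 5.31% to 19.8% in libraries labelled WT. WT replicate 1 alone set the top of that WT range for Tpm4. These shares were not tested, and a larger share of one gene is in part the smaller share of another. The lengths join all annotated exons of a gene. For Myl6 they came to 3187 bases in 2 blocks, nearly its whole locus. Before scaling, Myl6 averaged 805 CPM in libraries labelled WT, beside 859 CPM for Myl9. A shorter length would raise Myl6 per kb, so the leading member in either group and the shares depend on these lengths.

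The libraries labelled WT varied among themselves. WT replicate 2 held the highest level of 23 of the 39 genes and of 11 of the 12 that fell, and WT replicate 1 that of 8 and 1. WT replicate 2 also had counts for the most genes of any library, 17837. The WT order of the pericyte marker sum (replicate 2, then 1, then 3) was shared by 6 of the 12. Neither the highest library nor this order was counted over all tested genes, so neither can be called particular to the members. A tie to the pericyte markers was not tested. The 8 genes that fell other than Fhl5, Jph2, Mrvi1 and Stac were lower by between 3.10-fold (Cald1) and 55.3-fold (Des) in the ratio of mean CPM, WT over mPGES-1 KO, beside 16.8-fold for the pericyte marker sum.

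Other genes of the same machinery were taken from lists of names. Of 35 tested contraction and cytoskeleton genes outside the 39, 2 fell (5.71%, against 1.56% of all tested genes) and 0 rose by edgeR, with a median log2 fold change of -0.36. At an unadjusted p under 0.05, 10 were lower and 4 higher, beside 10.5% and 8.56% of all tested genes. DESeq2 called 8 lower and 4 higher, beside 7.46% and 6.8% of its genes. With limma-voom 7 were lower and 4 higher, beside 5.91% and 5.97%. Tgfb1i1, an adhesion protein that also acts as a nuclear receptor coactivator, was at 31.2, 23.1 and 26.3 CPM in libraries labelled mPGES-1 KO, against 236, 207 and 190.1 CPM in libraries labelled WT (log2 fold change -2.97 ± 0.26, edgeR adjusted p = 0.0143). Flna, the actin cross-linker filamin A, was at 95.1, 88.1 and 107 CPM in libraries labelled mPGES-1 KO, against 271, 259.9 and 232 CPM in libraries labelled WT (log2 fold change -1.39 ± 0.23, edgeR adjusted p = 0.0286). Of 9 tested SRF partners outside the 39, 0 were called by edgeR, DESeq2 or limma-voom and 1 was lower at an unadjusted p under 0.05, with a median of -0.92.

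Of 33 further calcium handling genes tested, 2 fell (6.06%) and 0 rose by edgeR, with a median log2 fold change of 0.07 and 16 negative and 17 positive values. At an unadjusted p under 0.05, 5 were lower and 6 higher, beside 10.5% and 8.56% of all tested genes. DESeq2 and limma-voom each called 5 lower and 4 higher. Over all genes DESeq2 called 7.46% lower and 6.8% higher, and limma-voom 5.91% and 5.97%. Calm3, a calmodulin gene, was at 70.0, 71.8 and 74.3 CPM in libraries labelled mPGES-1 KO, against 352, 219.7 and 222 CPM in libraries labelled WT (log2 fold change -1.88 ± 0.28, edgeR adjusted p = 0.0235). Cacnb3, a subunit of voltage-gated calcium channels, was at 13.6, 12.2 and 8.69 CPM in libraries labelled mPGES-1 KO, against 49.7, 87.9 and 50.7 CPM in libraries labelled WT (log2 fold change -2.45 ± 0.39, edgeR adjusted p = 0.028). Over the whole table edgeR called no gene without mPGES-1 KO replicate 2 or 3 and 1 gene without WT replicate 2, so these 4 calls were lost without either of those mPGES-1 KO libraries.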

How the data were processed

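RNA-seq was analysed from 3 libraries labelled mPGES-1 KO and 3 labelled WT. As the labels' protocols state, the cDNA came from sorted cells by a low-input template-switching kit, amplified by 16 PCR cycles and sequenced as single reads of 75 cycles. Kits of this kind keep no strand information and add no molecular identifiers. The authors deposited raw read counts per gene symbol without normalization, and FastQC 0.11.5, STAR and mm10 are named in the submitters' processing notes. The counting program and annotation are not stated in the sources used here.

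Counts were tested on the whole table in R 4.3.3 with edgeR 4.0.16: filterByExpr, TMM, a robust quasi-likelihood fit with no covariate, and two-sided tests with Benjamini-Hochberg adjustment over 16543 genes, with calls below 0.05. The standard error (SE) divides the log2 fold change's size by the root of the F statistic. CPM values scale counts to TMM-adjusted totals, and 3 counts stood for 0.0850 to 0.126 CPM in libraries labelled mPGES-1 KO and 0.0683 to 0.0824 CPM in those labelled WT. Alternatives included limma 3.58.1 (voom) and DESeq2 1.42.0. The test was run on simulated data first, with 50 changed genes at each size of change. It recovered 0 of 50 at a log2 fold change of 1, 0 at 2, 20 at 4 and 42 at 6, with 0 false calls. A gene that did not pass may therefore still differ between the groups. In the data themselves edgeR called 456 genes, at log2 fold changes down to 1.13 in size. The simulated recovery rates therefore do not carry over to them. Exonic lengths, positions and overlaps come from GENCODE M21 on GRCm38, in which all 39 members were found. More than 5% of exonic bases were shared with another gene in 8 members. Besides Tagln, Pln, Smtn and Stac, described above, these were Cnn3 (17.7%), Mylk (6.85%), Tpm4 (6.08%) and Des (5.86%), all on the opposite strand. Promoter sequences come from RefSeq.

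The members, the lists of related genes and markers, and the paralog pairs were chosen with earlier results of these data known. All 39 members are named; other lists name up to 5 called genes or 3 abundant markers, and the genes of the closing section were named after their values were seen.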

Additional observations from a re-analysis of the deposited data

How the results depend on the processing

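Settings other than the replicates changed the count of members that fell from 12 to between 11 and 18: 11 with DESeq2 size factors, library size alone or no filter, 13 with a filter of 1 CPM in 3 libraries or with libraries thinned to the smallest total (chosen after seeing the data), 14 at an adjusted p under 0.1, 15 in limma-voom and 18 in DESeq2. Of members called higher, DESeq2 and limma-voom gave 1. Leaving out single libraries gave 0 to 11 lower and 0 higher. The replicate numbers did not pair the libraries: deviations of same-numbered libraries correlated at -0.08 to 0.03, and not every library correlated best with its own number. With the replicate number as a block, 0 members and 0 genes of the whole table passed, with 18 members lower and 1 higher at an unadjusted p under 0.05, and the smallest p of a paralog ratio under that pairing is 0.25. The paired paralog differences equal the unpaired ones by arithmetic (-2.84 for Tpm2 over Tpm3). Over the whole table the 258 lower and 198 higher calls became 1103 and 1005 in DESeq2, 977 and 988 in limma-voom, 633 and 480 at an adjusted p under 0.1, and 0 to 241 lower and 0 to 327 higher without single libraries. In all, 428 of the alternative values of single members kept their direction and their side of the threshold, 68 lost a call, 15 gained one and 7 changed sign.

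The sign changes were in members that did not pass. Tpm4 was 0.43 in limma-voom and 0.045 with the block, and -0.59 to 0.64 without single libraries. Under the same omissions Cnn1 ran from -0.32 to 1.30, Tpm1 from -0.53 to 0.053 and Myh10 from -0.061 to 0.70. The log2 ratios ran from -1.18 to 1.47 for Cnn1 over Cnn3, from -0.54 to 0.061 for Tpm1 over Tpm4 and from -0.12 to 0.45 for Ppp1r12b over Ppp1r12a. The cause was not tested. The median of the members ran from -2.09 to -1.18. The common biological coefficient of variation was 0.818, and no gene with a log2 fold change under 1.13 in size was called. Myocd and Pln had too few counts to be tested.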

Other observations

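Of 36 other contraction and cytoskeleton genes in the table, 13 lay wholly below and 4 wholly above in libraries labelled mPGES-1 KO. Of 37 other calcium handling genes, 6 lay below and 5 above, beside 15.7% below and 12.2% above over all tested genes. The following 6 genes did not pass and were chosen after their values were seen. Cacna1c, the pore of the voltage-gated calcium channel of smooth muscle, was at 8.27, 4.86 and 1.05 CPM in libraries labelled mPGES-1 KO, against 23.6, 56.3 and 59.5 CPM in libraries labelled WT (log2 fold change -3.30 ± 0.78, edgeR adjusted p = 0.0711). Prkg1, the cyclic GMP kinase that acts through the Mrvi1 product, was at 2.05, 2.72 and 0.623 CPM in libraries labelled mPGES-1 KO, against 18.6, 20.4 and 9.42 CPM in libraries labelled WT (log2 fold change -3.17 ± 0.81, edgeR adjusted p = 0.0858). Casq2, a calcium-binding protein of muscle stores, was at 0, 0 and 0.736 CPM in libraries labelled mPGES-1 KO, against 21.6, 9.33 and 3.71 CPM in libraries labelled WT (log2 fold change -5.50 ± 1.91, edgeR adjusted p = 0.169).

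In the other direction, Ppp1cb, the catalytic subunit of myosin phosphatase, was at 512, 950.3 and 699 CPM in libraries labelled mPGES-1 KO, against 378, 106 and 122 CPM in libraries labelled WT (log2 fold change 1.83 ± 0.53, edgeR adjusted p = 0.115). Actg1, the non-muscle gamma actin, was at 863, 571 and 435 CPM in libraries labelled mPGES-1 KO, against 309.6, 177 and 185 CPM in libraries labelled WT (log2 fold change 1.48 ± 0.36, edgeR adjusted p = 0.0789). Stim2, a sensor of calcium in the stores, was at 46.3, 55.4 and 64.5 CPM in libraries labelled mPGES-1 KO, against 21.0, 27.6 and 24.4 CPM in libraries labelled WT (log2 fold change 1.19 ± 0.31, edgeR adjusted p = 0.0863).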
